A study of Mus musculus with 10 samples.

Results

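The epithelial sodium channel and its partners in lung fluid transport are described here through 9 genes: the channel subunits Scnn1a, Scnn1b and Scnn1g, the kinase Sgk1, the ubiquitin ligase Nedd4l, the membrane protease Prss8, the sodium pump subunit Atp1b1, the chloride channel Cftr and the cotransporter Slc12a2. Every probe set of the array that the platform annotation assigns to exactly 1 of these symbols was taken, which gave 21 of the 45101 probe sets in the table, for 9 of the 18194 genes named by such probe sets. A probe set is a group of short oligonucleotides read together as 1 measurement of a transcript, and its value is given on the log2 scale, so a difference of 1 is a doubling. The lungs came from 10 adult C57BL/6 mice (an inbred strain), all female, and dissected lung tissue of each was measured on 1 Affymetrix Mouse430_2 array. The 5 arsenic mice drank water with arsenic at 50 ppm for 12 weeks from 8 weeks of age, and the 5 control mice drank distilled deionized water for the same time. The compound is named arsenate for the series and arsenite for the single samples, and is called arsenic here. Another number in the sample titles differs between the groups without overlap, so a cage or batch that it may mark and the exposure cannot be told apart.

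As background, alveolar and airway epithelium clears fluid from the airspace by moving sodium: it enters cells through the apical channel made of alpha, beta and gamma subunits and leaves through the basolateral Na,K-ATPase, and water follows. Nedd4l tags the channel with ubiquitin for removal from the membrane, Sgk1 phosphorylates and restrains Nedd4l, and Prss8 cleaves the channel's gamma subunit and so opens it. Secretion runs the other way, with Slc12a2 loading chloride from the basolateral side and Cftr releasing it at the apical side. Glucocorticoid and mineralocorticoid hormones are known inducers of Sgk1 and of channel subunits.

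Stretches of DNA just before the transcription start are shown for 3 members: for Sgk1 because it is a known glucocorticoid target whose level is set below beside those of other such targets, and for Scnn1b and Scnn1g because they lie next to each other on chromosome 7, with 0 protein-coding genes between them in RefSeq, and are subunits of 1 channel. The sequences are from RefSeq on the mouse build GRCm38.p6, all on the plus strand, and give the 250 bases that end 1 base before an annotated start. RefSeq has 6 starts for Sgk1, and the window shown, chr10:21993640-21993889, was chosen because it is the 1 of the 6 that holds a full glucocorticoid element; of the other 5, 2 hold 1 half-site each and 3 hold none. Windows of 5 of the 9 genes were used. Scnn1a and Prss8 had none in the source, and Nedd4l and Slc12a2 were left out of the motif search by their chromosome. Capitals mark glucocorticoid half-sites (AGAACA, either strand) and the full element in Sgk1, and GC boxes (GGGCGG, either strand) in the other two.
Sgk1 chr10:21993640-21993889: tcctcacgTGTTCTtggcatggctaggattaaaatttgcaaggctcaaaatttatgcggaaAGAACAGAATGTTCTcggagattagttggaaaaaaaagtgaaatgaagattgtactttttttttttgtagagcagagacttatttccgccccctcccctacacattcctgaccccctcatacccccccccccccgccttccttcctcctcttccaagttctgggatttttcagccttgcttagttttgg
Scnn1g chr7:121734229-121734478: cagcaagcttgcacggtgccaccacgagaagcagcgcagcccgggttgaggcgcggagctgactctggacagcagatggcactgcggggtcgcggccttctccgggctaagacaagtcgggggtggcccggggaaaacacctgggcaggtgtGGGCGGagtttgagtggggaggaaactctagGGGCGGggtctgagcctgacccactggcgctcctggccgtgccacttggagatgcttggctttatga
Scnn1b chr7:121864788-121865037: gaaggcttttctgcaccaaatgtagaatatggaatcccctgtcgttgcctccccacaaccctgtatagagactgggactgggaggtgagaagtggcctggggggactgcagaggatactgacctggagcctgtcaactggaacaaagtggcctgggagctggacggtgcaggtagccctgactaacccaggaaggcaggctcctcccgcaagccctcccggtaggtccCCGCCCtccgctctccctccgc
The Sgk1 window held 3 half-sites, of which 2, in opposite orientation from -189 to -175 counted from the start, formed the full glucocorticoid element, AGAACA and TGTTCT with any 3 bases between them. Of 32817 windows of the same length, 16.1% held a half-site and 3 windows (0.00914%) held the full element; since the Sgk1 window was chosen for its match, this share is a description. The window of Scnn1g held 2 GC boxes and that of Scnn1b held 1, and 32.7% of all windows held at least 1. Neither held a glucocorticoid half-site. These are matches of letters and show no binding.

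After 12 weeks of arsenic no member passed the test over all probe sets. Nedd4l came closest: its brightest probe set lay 1.24-fold higher with arsenic and separated all 5 arsenic animals from all 5 controls. Scnn1a, Prss8 and Atp1b1 had differences of 0.21 to 0.29 upward, Scnn1b, Scnn1g and Sgk1 of 0.02 to 0.09, and the 3 probe sets of Slc12a2 of -0.31 to -0.15 on the log2 scale. Of the 21 probe sets, 17 exceeded the filter on dim values (above 4.20, the table's overall median, on 5 arrays or more), so each of the 9 genes had at least 1. With limma and Benjamini-Hochberg adjustment, 0 of the 17 had an adjusted p under 0.05, beside 0.44% of the 22495 probe sets tested. At an unadjusted p under 0.05, 2 of the 17 were higher, beside 8.4% of all, and 0 were lower, beside 8.79%. The groups did not overlap for 1 of the 17, beside 3.86% of all: 1 lay above the controls, beside 2.18%, and 0 below, beside 1.68%. The difference was positive for 14 of the 17, beside 55.3% of all, and its median was 0.17, beside 0.03; 11 of the 17 come from the 3 genes with several probe sets, which are not independent. In bulk tissue, more RNA per cell and more cells of a type cannot be told apart.

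**Figure D1:**
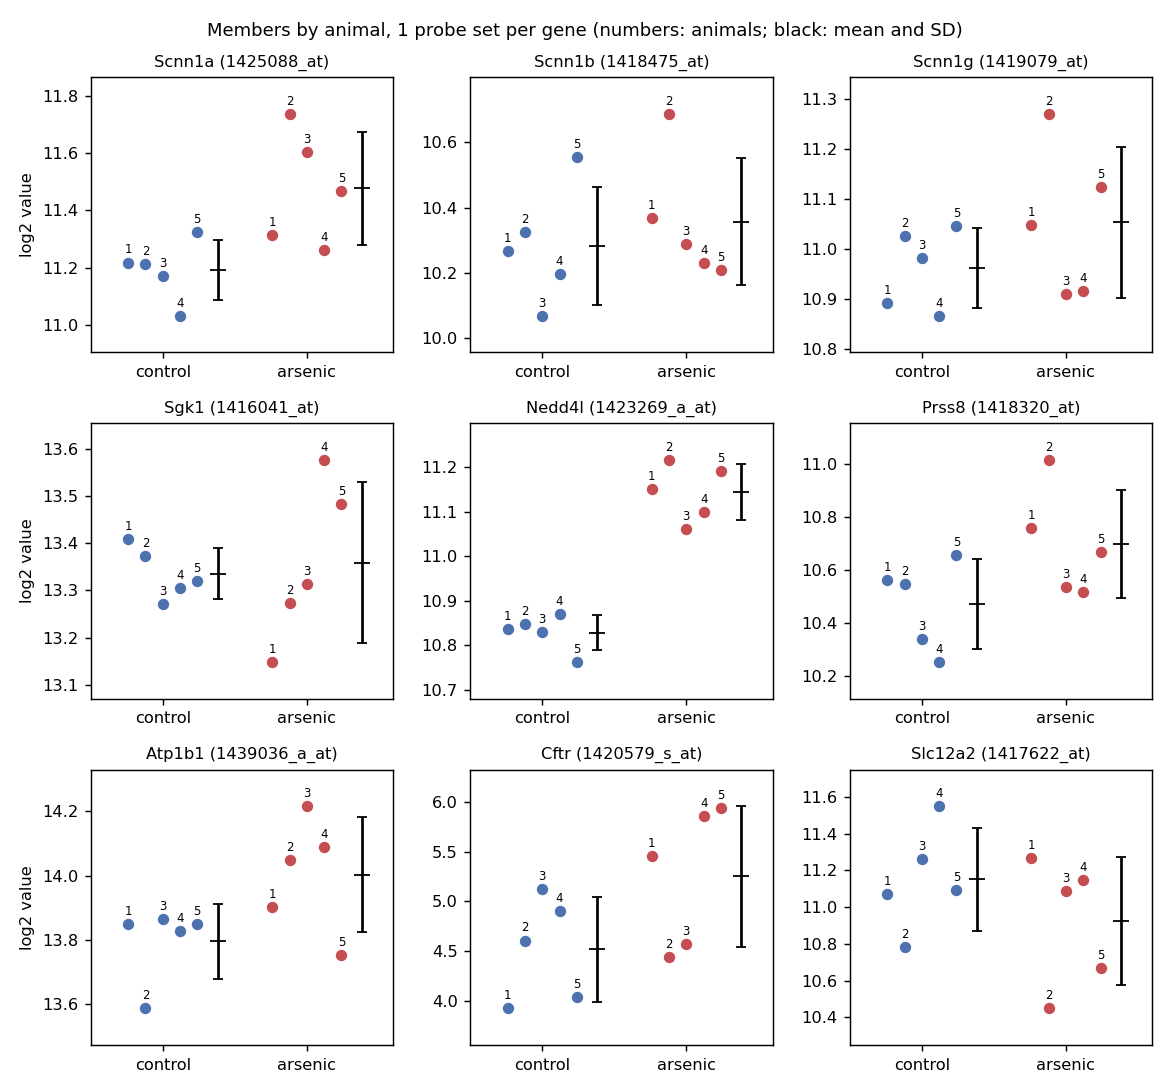
Log2 values (vertical axes, a scale of its own for each gene) of the brightest probe set of each of the 9 genes in 5 control (blue) and 5 arsenic (red) lungs; small numbers are animals, and black marks the group mean with its SD. Only for Nedd4l do all arsenic points (11.06 to 11.22) lie above all control points (10.76 to 10.87); arsenic animal 2 is the highest for all 3 channel subunits and Prss8.

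Among the pore-forming subunits, alpha (Scnn1a, probe set 1425088_at) was at 11.22, 11.21, 11.17, 11.03 and 11.32 in control animals 1 to 5, and at 11.31, 11.74, 11.60, 11.26 and 11.47 in arsenic animals 1 to 5. All 5 arsenic values lay above the control mean and 3 above the highest control, so the groups overlapped. The difference was 0.29 (SE 0.10, 95% interval 0.06 to 0.51; unadjusted limma p = 0.0188, adjusted p = 0.216; exact permutation p = 0.0238), from 11.19 ± 0.11 to 11.48 ± 0.20 (SD, n = 5 each). Beta (Scnn1b, 1418475_at) was at 10.27, 10.33, 10.07, 10.20 and 10.55 in the control lungs, whereas the arsenic lungs had 10.37, 10.69, 10.29, 10.23 and 10.21. The ranges nearly coincided, and the difference of 0.07 (95% interval -0.18 to 0.33; limma adjusted p = 0.756) was -0.01 without arsenic animal 2. Gamma (Scnn1g, 1419079_at) was at 10.89, 11.03, 10.98, 10.87 and 11.05 in the control lungs and, in the arsenic lungs, at 11.05, 11.27, 10.91, 10.92 and 11.12. Here 3 arsenic animals exceeded the highest control, 1 of them barely, and the difference was 0.09 (95% interval -0.10 to 0.28; limma adjusted p = 0.591), or 0.04 without arsenic animal 2. The intervals of beta and gamma thus include changes of up to 0.33 and 0.28 upward; whether the subunits' differences differ from each other was not tested.

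Sgk1, the hormone-induced kinase, had the smallest difference of the 17 probe sets. Its probe set 1416041_at was at 13.41, 13.37, 13.27, 13.31 and 13.32 in the control lungs and, in the arsenic lungs, at 13.15, 13.27, 13.31, 13.58 and 13.48. Arsenic animals held both the lowest and the highest value. The difference was 0.02 (SE 0.09, 95% interval -0.17 to 0.22; limma adjusted p = 0.906). The glucocorticoid targets Fkbp5, a co-chaperone of the hormone receptor, and Tsc22d3, the leucine-zipper protein GILZ that is known to raise the channel's surface level, were measured in the same animals. Fkbp5 rose by 1.76 (SE 0.21, limma adjusted p = 0.0117), and it no longer passed without arsenic animal 4 and control animal 2 (adjusted p = 0.0627) and without arsenic animal 5 and control animal 2 (adjusted p = 0.116). Tsc22d3 had a difference of 0.62 (SE 0.13, adjusted p = 0.0725), and of 0.74 on another probe set (adjusted p = 0.0754). Whether Sgk1 differs in its change from these genes was not tested.

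Nedd4l, which removes the channel from the membrane, has 6 probe sets, of which 4 exceeded the filter. The brightest, 1423269_a_at, was at 10.84, 10.85, 10.83, 10.87 and 10.76 in the control lungs and, in the arsenic lungs, at 11.15, 11.22, 11.06, 11.10 and 11.19. Every arsenic value exceeded every control value, with a gap wider than the SD of either group (0.04 and 0.06). The difference was 0.32 (SE 0.06, 95% interval 0.18 to 0.45; limma adjusted p = 0.0693), and the exact two-sided permutation test over all splits of the animals gave p = 0.00794, the smallest it can give. The adjusted p was 0.0293 without a filter on dim probe sets, 0.0422 with the stricter filter, 0.032 with a trended prior variance and 0.0494 with array weights, so under these 4 alternatives the probe set passed. It did not pass under the others, where the limma adjusted p reached 0.261. The difference kept its size with the kidney level in the fit (0.32, adjusted p = 0.15) and without any 1 animal (0.30 to 0.34). Without 1 animal the limma adjusted p was 0.0701 to 0.190, so 0 of these fits passed.

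The other tested probe sets of Nedd4l also had positive differences, but their groups overlapped. Probe set 1457374_at was at 10.63, 10.24, 10.11, 10.10 and 10.34 in the control lungs and, in the arsenic lungs, at 10.58, 10.14, 10.43, 11.09 and 10.72, a difference of 0.31 (SE 0.17, limma adjusted p = 0.365). Probe sets 1441305_at and 1437400_at had 0.17 and 0.15 (SE 0.15 and 0.16). With the kidney level in the fit 1441305_at had 0.04. Across animals, after the group means were taken out, the brightest probe set correlated with these 3 at -0.36, 0.12 and -0.44 (Pearson's r over 10 arrays, a description). Probe sets 1456044_at and 1423270_at lay between 2.76 and 3.76 on all arrays, near the floor of the scale, and were not tested. The separation of the groups thus rests on 1 probe set, and the positions of the 6 in the transcript were not analysed here.

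Prss8, the channel-activating protease prostasin, was at 10.56, 10.55, 10.34, 10.25 and 10.66 in the control lungs and, in the arsenic lungs, at 10.76, 11.02, 10.53, 10.51 and 10.67 (1418320_at). All 5 arsenic values exceeded the control mean, and 3 exceeded the highest control. The difference was 0.23 (SE 0.12, 95% interval -0.03 to 0.49; limma adjusted p = 0.336). It was 0.15 without arsenic animal 2 and 0.37 with the kidney level in the fit.

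On the basolateral side, the Na,K-ATPase subunit Atp1b1 has 5 probe sets. Its brightest, 1439036_a_at, was at 13.85, 13.58, 13.86, 13.83 and 13.85 in the control lungs and, in the arsenic lungs, at 13.90, 14.05, 14.22, 14.09 and 13.75. In 4 arsenic animals it exceeded every control, and arsenic animal 5 and control animal 2 were the lowest of their groups. The difference was 0.21 (SE 0.10, 95% interval -0.01 to 0.43; limma adjusted p = 0.314). The probe sets 1418453_a_at, 1451152_a_at and 1423890_x_at had 0.22, 0.22 and 0.17, and the 4 correlated with each other at 0.86 to 0.96 after the group means were taken out. The fifth, 1455949_at, lay between 1.88 and 2.04 on all arrays and was not tested.

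The secretory members had larger SEs than the channel subunits. Cftr's brighter probe set 1420579_s_at was dim, at 3.93, 4.61, 5.13, 4.90 and 4.04 in the control lungs and, in the arsenic lungs, at 5.45, 4.44, 4.57, 5.85 and 5.94. Arsenic animals 1, 4 and 5 exceeded all controls, while arsenic animals 2 and 3 lay inside the control range; 8 of the 10 values exceeded the filter. The difference of 0.73 had an SE of 0.35 (95% interval -0.03 to 1.49; limma adjusted p = 0.309) and was 0.27 with the kidney level in the fit. The other, 1427767_a_at, lay between 2.87 and 3.13 on all arrays. Slc12a2, the Na-K-2Cl cotransporter, was at 11.07, 10.78, 11.26, 11.55 and 11.09 in the control lungs and, in the arsenic lungs, at 11.27, 10.45, 11.09, 11.15 and 10.67 on its brightest probe set 1417622_at. Arsenic animals 2 and 5 were below every control and none was above. The difference was -0.23 (SE 0.18, 95% interval -0.63 to 0.17; limma adjusted p = 0.522), -0.13 without control animal 4, -0.11 without arsenic animal 2 and -0.45 with the kidney level in the fit. Its probe sets 1448780_at and 1417623_at had -0.31 and -0.15.

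**Figure D2:**
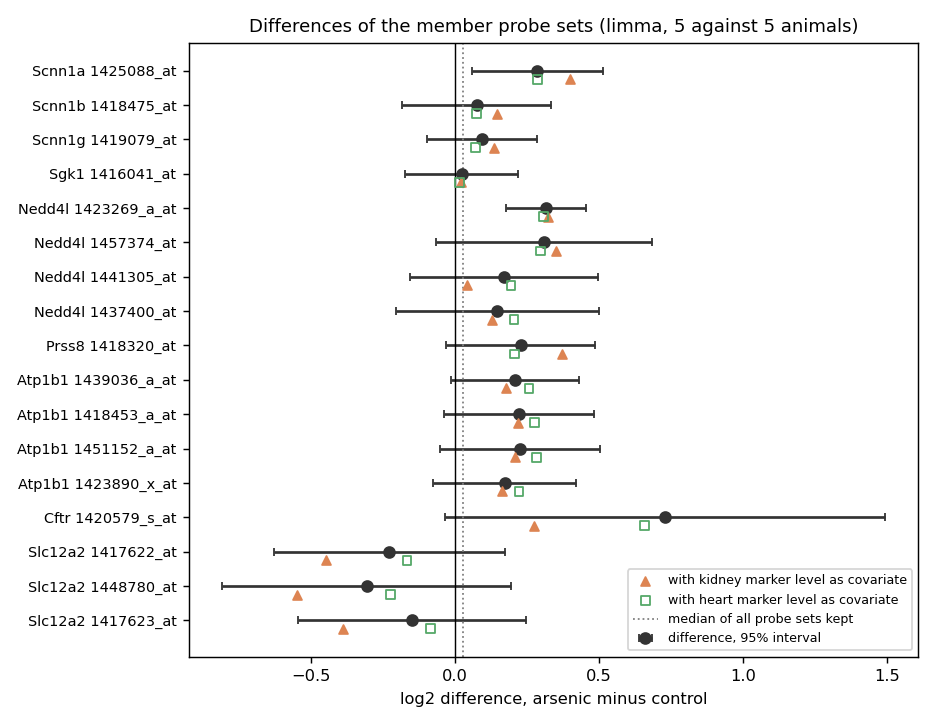
Log2 differences, arsenic minus control (horizontal axis), of the 17 probe sets tested, with their 95% limma intervals (black); triangles and open squares give the estimate with the kidney or the heart muscle marker level as a covariate, and the dotted line the median of all probe sets tested (0.03). Intervals of Scnn1a and of 1423269_a_at of Nedd4l lie above 0, and the Cftr estimate moves from 0.73 to 0.27 with the kidney level.

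Levels of transcripts that mark other tissues differed between animals, and their source was not tested. Alveolar markers were close in all animals, unlike the airway markers given below. The 9 alveolar type 2 markers had a mean of 14.31 to 14.44 in controls and of 14.25 to 14.47 with arsenic. For the 10 alveolar type 1 markers it was 13.13 to 13.32 and 13.10 to 13.27, with no marker past the threshold in either list. Of 25 kidney transcripts on the array 9 exceeded the filter, and all 9 had a positive difference; their mean was 4.55 to 7.82 in controls and 6.98 to 9.05 with arsenic (exact two-sided permutation p = 0.0714), highest in arsenic animal 4 and lowest in control animal 1. Among them Kap, a kidney protein, reached 13.40, and the tubule protein Umod was at 3.45 to 8.94 in controls and 7.66 to 10.73 with arsenic. Of the 16 below the filter, Cubn reached 7.11 with arsenic against 4.64 in controls, Slc12a1 5.46 against 3.11, Acsm2 4.87 against 2.80 and Slc22a8 4.06 against 2.92. The other 12, among them the tubule and podocyte genes Aqp2, Slc12a3 and Nphs1, stayed at or below 3.48 on all arrays. With the kidney level in the fit, the difference of Scnn1a was 0.40 (SE 0.12) and that of Cftr had an SE of 0.37, that of Slc12a2 0.20 and that of Prss8 0.13.

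Heart muscle transcripts, of which 9 of 10 exceeded the filter, had a mean of 7.40 to 9.91 in controls and of 6.82 to 10.12 with arsenic, and the 10 club and secretory markers of 11.98 to 14.39 and of 12.02 to 14.45. Both were lowest in control animal 2 and arsenic animal 5, the animals with the least Atp1b1 on its brightest probe set. On 1418453_a_at arsenic animal 1 (11.918) lay below arsenic animal 5 (11.925). In control animal 2 the airway secretory gene Bpifa1 was at 4.10, against up to 15.76 in other controls. Fitted beside the heart muscle level, a choice made after seeing the data, the difference of Atp1b1 was 0.26 (SE 0.06, limma adjusted p = 0.13), and without arsenic animal 4 and control animal 2 it was 0.13. Ciliated markers had a mean of 10.13 to 11.18 in controls and 9.78 to 11.20 with arsenic, 4 adipocyte markers of 4.93 to 8.01 and 4.83 to 9.27, and 2 red blood cell markers of 8.51 to 9.29 and 9.14 to 9.72, with no marker past the threshold. Of 6 ionocyte markers 2 exceeded the filter, with a mean of 9.31 to 9.75 in controls and 9.33 to 9.83 with arsenic. The ionocyte factor Foxi1, a marker of the rare airway cells rich in Cftr, was between 2.19 and 2.28 on all arrays.

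**Figure D3:**
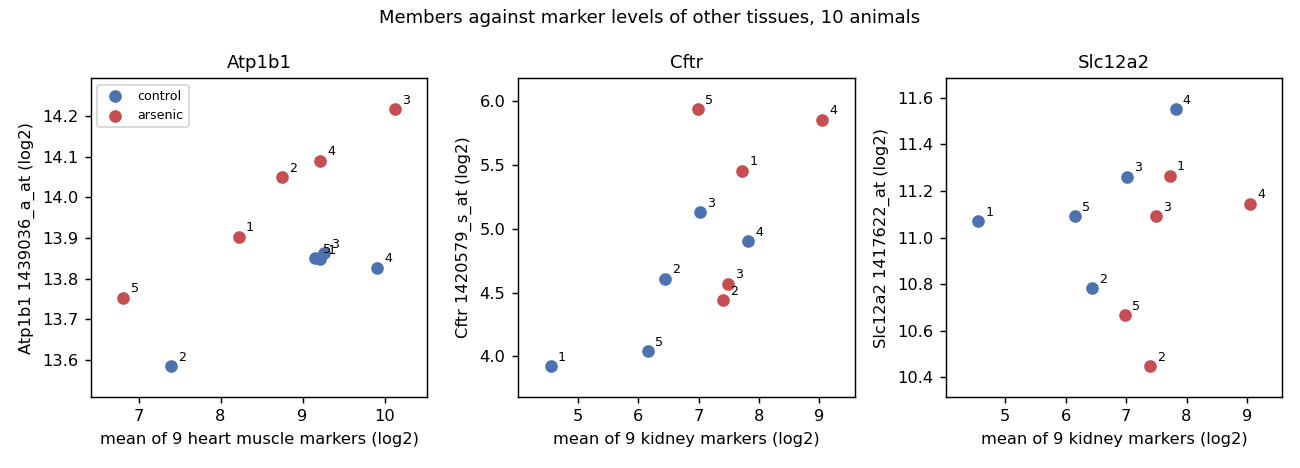
Log2 values of Atp1b1 against the mean of 9 heart muscle markers, and of Cftr and Slc12a2 against the mean of 9 kidney markers, in 5 control (blue) and 5 arsenic (red) lungs, numbered by animal. Control animal 2 and arsenic animal 5 have the lowest heart muscle levels and the lowest Atp1b1 on its brightest probe set. Control animal 1 has the lowest kidney level and the lowest Cftr (3.93).

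After the group means were taken out, Prss8 correlated with Scnn1b at 0.87, with Scnn1g at 0.82 and with Scnn1a at 0.67, and Scnn1b with Scnn1g at 0.66 (Pearson's r over 10 arrays, Spearman's rho 0.77, 0.77, 0.71 and 0.47). These are descriptions over arrays that share tissue composition: by r, among the 11331 genes compared with Prss8, Scnn1b ranked 65, Scnn1g 213 and Scnn1a 1306, and the subunits ranked between 1180 and 2341 for each other. Slc12a2 ran against them, at -0.77 with Scnn1g, -0.72 with Scnn1a and Prss8 and -0.51 with Scnn1b. Cftr was at -0.78 with Scnn1a, -0.73 with Scnn1b, -0.61 with Prss8 and -0.22 with Scnn1g. Ranked from the highest r among 11331 genes, Scnn1g was 9944, Scnn1a 9356 and Prss8 9331 for Slc12a2. For Cftr, Scnn1a ranked 11010. Between the brightest probe sets, Sgk1 was between -0.32 and 0.30 with every other member, while over all tested probe sets it reached 0.72 with 1457374_at and -0.48 with 1437400_at of Nedd4l. By the same measure the 3 genes nearest to Scnn1a were Crat (0.98), Zfp771 and Ank, those nearest to Scnn1b were Tmem35a (0.97), Cops7b and Rhot2, and those nearest to Scnn1g were Tmem50b (0.97), Zfand2a and B4galt3. For Prss8 they were Pdf (0.96), Rnf8 and Pcyt2, for Sgk1 Ccdc28b (0.91), Cytip and Upk1a, and for Nedd4l Cryab (0.93), Ube2k and Pxmp4. For Cftr they were Nol7 (0.92), Erc1 and Plekhg1, and for Slc12a2 Tm9sf3 (0.99), Slco4c1 and Pcf11. For Atp1b1 they were the heart muscle markers Actc1 (0.98) and Tnni3 (0.95), and Gclm (0.96).

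Partner genes were counted in 8 lists, each gene by its brightest probe set past the filter. Over all genes counted this way 0.415% had an adjusted p under 0.05 (limma), and the median difference was 0.06. Of 96 partner genes counted over the lists 1 rose, Fkbp5, and 0 fell.

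Of 20 genes that control the channel's surface level and exceeded the filter, 0 passed, 10 were higher and 10 lower, and the median difference was 0.00. Beside Tsc22d3, the related ubiquitin ligase Nedd4 had -0.30 (SE 0.11, limma adjusted p = 0.23), the opposite sign to Nedd4l, and its other probe sets had -0.37 and -0.35. Cnksr3, a scaffold that is known to assemble the channel with Sgk1 and Nedd4l, had 0.29, and the 14-3-3 protein Ywhah 0.13. Of 7 channel-activating proteases and their inhibitors 6 were higher and 0 passed (median 0.11): the proprotein convertase Furin had 0.23 (SE 0.10, adjusted p = 0.271), Tmprss4 0.11, matriptase (St14) 0.13 and the inhibitor Spint1 0.11.

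Among 13 genes of corticosteroid and beta-adrenergic input, 6 were higher and 7 lower (median -0.02), and Fkbp5 alone passed. The mineralocorticoid receptor Nr3c2 was at 8.20 ± 0.14 in controls and 7.91 ± 0.14 with arsenic (limma adjusted p = 0.198). The cyclic AMP phosphodiesterase Pde4b had -0.72 (adjusted p = 0.195), with -0.75 and -1.18 on its other probe sets, and the cyclic AMP-responsive factor Creb1 had -0.57, and -0.46, 0.14 and 0.07 on its other probe sets. Of 8 genes of the Na,K-ATPase and its FXYD regulators 0 passed (median 0.09), with phospholemman (Fxyd1) at 0.22, Fxyd5 at 0.15, the beta 3 subunit Atp1b3 at 0.09 and Fxyd4 at -0.15. Of 8 water channels on the array 4 exceeded the filter, and these 4 had negative differences without passing (median -0.13). Aqp5 of alveolar type 1 cells had -0.11, Aqp4 -0.43 (SE 0.69) and Aqp3 -0.14 (SE 0.58, and 0.12 on another probe set). The endothelial Aqp1 had -0.01 (SE 0.11), which changed sign with median centring (0.06).

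Of 18 chloride and bicarbonate transporters 11 were higher and 7 lower (median 0.05, 0 passed), with the sulfate carrier Slc26a2 at -0.75 (SE 0.29, limma adjusted p = 0.234), Clcn3 at -0.23, and Lrrc8a and Lrrc8d, subunits of the volume-regulated anion channel, at 0.20 and 0.18. Of 14 partners of CFTR 10 were higher and 0 passed (median 0.07); the ubiquitin ligases Syvn1 and Rnf5 of the endoplasmic reticulum had 0.26 and 0.23, the scaffold Slc9a3r2 0.31 and the co-chaperone Ahsa1 0.21. Another probe set of Ahsa1 had -0.87 and did pass (adjusted p = 0.0367). Of 12 potassium channels and other cation pathways 7 were higher and 0 passed (median 0.03). The potassium channel Kcnk1 did not overlap between the groups, beside 3.86% of all probe sets, at 10.02 ± 0.17 in controls and 10.50 ± 0.25 with arsenic (0.47, SE 0.13, limma adjusted p = 0.152), and its second probe set had 0.54. Kcnk5 had -0.27, Trpm7 -0.32 and Kcne3 0.63 (SE 0.60).

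**Figure D4:**
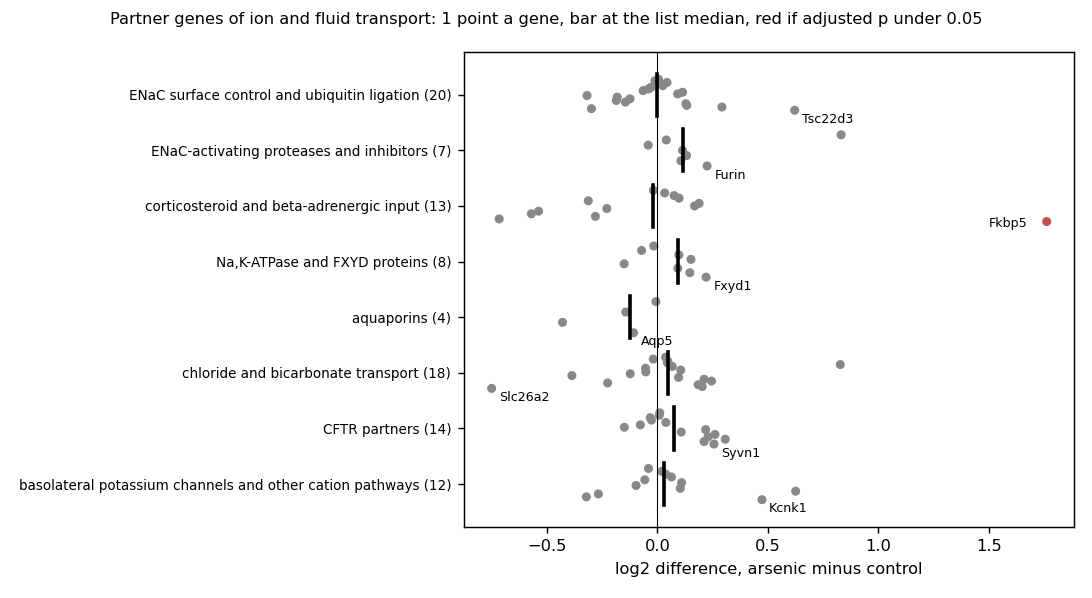
Log2 differences, arsenic minus control (horizontal axis), of the partner genes of 8 lists, 1 point per gene with the number of genes in brackets, the gene with the smallest p named and the list median as a bar. Medians lie between -0.13 and 0.11, and Fkbp5 at 1.76 is the 1 gene with an adjusted p under 0.05 (red).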

How the data were processed

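Lung RNA of 10 animals was hybridised to 1 array each. The deposited values are log2 intensities made by the authors with GCRMA, per the submitters' processing notes; the version is not given in the sources used here. GCRMA corrects background by probe sequence and normalizes between arrays, so values near the floor carry little information, and levels of different probe sets cannot be compared. Arrays have no read depth; their number limits the precision.

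Control probe sets (64) and those not above the table's median (4.20) on at least 5 arrays were left out, which kept 22495. Groups were compared with limma 3.58.1 in R 4.3.3 (lmFit, eBayes, Benjamini-Hochberg over all kept probe sets, adjusted p 0.05), and the script was tested on simulated data. There it called 3 of 50 probe sets with a true log2 difference of 0.3, 17 of 50 with 0.5 and 42 of 50 with 1. With 2 it called 48 of 50, and it called 9 of 22295 unchanged ones. A member difference near 0.3 could thus be real and still not pass. Single values were tested with an exact permutation over all splits. Each gene of a list was counted by the brightest of its kept probe sets. All members were named, and from each list the 4 genes of smallest p, any past the threshold, and the 3 genes most correlated with each member. The platform annotation gives 34958 probe sets 1 gene symbol, 932 several and 9211 none, and only the first were named. Members and lists were chosen with earlier results of these data known. The labels call the samples separate animals and give control animal 4 no dose in its treatment field, though its title gives 0. Same-numbered animals did not deviate together (r -0.26 to 0.15), so numbers were not used as pairs. Alternatives changed the filter, normalization, variance model, array weights, covariates and animals.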

Additional observations from a re-analysis of the deposited data

Results flagged for a closer look

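Control animal 2 stood apart from the other 4 controls on 3 of the 4 tested probe sets of Atp1b1, by Dixon's test at its 95% critical value of 0.71 for groups of 5. Its log2 value was 13.58 on 1439036_a_at, 11.55 on 1418453_a_at and 11.44 on 1451152_a_at, with gaps of 0.869, 0.824 and 0.762 of the group's range. In all, 36 such groups were tested and 3 were singled out, where chance singles out about 1 in 20. The 3 are readings of 1 gene in 1 animal that correlate with each other, so they count as about 1 event, and their number is not set against chance. Without control animal 2 the difference of Atp1b1 on 1439036_a_at was 0.16, against 0.21 with it. The same animal had the lowest heart muscle (7.40) and club and secretory (11.98) marker levels of the controls; their part in its low Atp1b1 was not tested.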

How the results depend on the processing

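Of 398 member differences recomputed under 24 alternatives, 389 kept their direction and side of the threshold, 5 changed sign and 4 newly passed. No member lost a call, since none had one. The count of members past the threshold was 1, in place of 0, without a filter, with the filter at the 75th percentile, with a trended variance and with array weights, each time 1423269_a_at of Nedd4l; leaving out any 1 animal gave 0 to 0. Sgk1 changed sign with array weights (-0.011) and without arsenic animal 4 and control animal 2 (-0.022), and ranged from -0.031 to 0.076 without 1 animal; Scnn1b ranged from -0.0081 to 0.14.

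Of all probe sets, 99 passed; 19 did without a filter, 54 with 1 probe set per gene, 167 with array weights, 4 with the kidney level in the fit and 12 to 97 without 1 animal (12 without control animal 1, 13 without arsenic animal 5). By limma 0 passed without arsenic animal 4 and control animal 2 (5133 at an unadjusted p under 0.05), and 0 without arsenic animal 5 and control animal 2 (2801), an alternative chosen after seeing the data, as were the heart muscle and the club and secretory covariates. With the replicate block 4 passed, with 0 members, and Fkbp5 had an adjusted p of 0.091; 0 animals correlated best with their own number.

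The median of the surface control list was 0.060 with median centring and -0.0586 without arsenic animal 4 and control animal 2, and -0.057 to 0.0090 without 1 animal. That of the CFTR partners was 0.14 with median centring, 0.13 with the kidney level and 0.12 without those 2 animals. The kidney marker difference was 0.87 to 1.69 without 1 animal, and passed (exact permutation p = 0.0159) without control animal 4. Among aquaporins, Aqp1 was 0.057 with median centring, 0.029 with the kidney level, 0.047 without arsenic animal 4 and control animal 2, and -0.076 to 0.052 without 1 animal; Aqp5 was 0.027 with the kidney level; Aqp3 was 0.12 with the heart muscle level and -0.62 to 0.13 without 1 animal; Aqp4 was -0.90 to 0.031 without 1 animal. Tsc22d3 passed with the filter at the 75th percentile (adjusted p = 0.0472), with a trended variance (0.0422) and without arsenic animal 1 (0.0323). The causes were not tested. Cftr and Aqp3 lie near the filter's level on several arrays, which limits them, and Aqp4 varied widely between animals.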
